A study of Mus musculus with 6 samples.

Results

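Neurexins, neuroligins and leucine-rich repeat transmembrane neuronal proteins (LRRTMs) are cell-surface proteins that join the 2 sides of a synapse. The genes described here were 2 neurexins (Nrxn2, Nrxn3), 3 neuroligins (Nlgn1, Nlgn2, Nlgn3) and 4 LRRTMs (Lrrtm1, Lrrtm2, Lrrtm3, Lrrtm4). They were chosen by symbol, and all 9 were found among the 47794 genes of the deposited table. The cortex, dissected as primary somatosensory cortex from C57BL/6 mice at postnatal day 14, was profiled by RNA-seq. The control group had 3 libraries from mice with a floxed exon 3 of Ctnnb1, the β-catenin gene. The overexpression group had 3 libraries from mice with the same floxed allele and Nex-Cre, which recombines in forebrain excitatory neurons and not in every cell of the tissue. Both groups carried the floxed allele, and no group with Nex-Cre alone was among the samples used here. Nothing in the labels ties each numbered replicate to its own animal. The p-values therefore rest on the spread between libraries, part of which may be technical.

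Neurexins sit mainly in the presynaptic membrane and bind neuroligins and LRRTMs in the membrane opposite. Neuroligin 1 is found mostly at glutamatergic synapses, neuroligin 2 at inhibitory synapses and neuroligin 3 at both. LRRTMs act at glutamatergic synapses, where they hold AMPA receptors in place. β-Catenin binds cadherins at the same contacts and, in the nucleus, works with transcription factors of the TCF/LEF family. Exon 3 holds the phosphorylation sites through which β-catenin is degraded, so its loss stabilises the protein.

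Of the 9 genes, 8 had a lower group mean in overexpression than in control cortex and 1, Nlgn3, had a higher one, but none of them passed the test. By the adjusted p of the authors' deposited table, none of the 9 (0 genes) was under 0.05, where 0% of the 30152 tested genes were. The unadjusted p was under 0.05 for 0 of the 9 genes and for 0.534% of all tested genes in the authors' deposited table. The members' unadjusted p ran from 0.169 to 0.88 there, with a median of 0.333, where the median over tested genes with a mean of at least 100 was 0.669. Where no gene differs, a calibrated test gives an unadjusted p under 0.05 for a share of about 0.05 of genes. The deposited p-values fell well short of that share, so a gene that did not pass is weak evidence of no difference. The largest difference was 1.13-fold, in Lrrtm3. A lower mean was common in the whole table: 57.8% of the 11645 tested genes with a mean of at least 100 were lower in overexpression cortex. The median log2 fold change (overexpression over control) of the 9 genes was -0.10, beside -0.017 for those 11645 genes.

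The table gave 1 value per gene and group, a mean of scaled read counts, so these means have no SD. All 9 genes had a mean of at least 100. The group means of all genes summed to 19016749 in control and 18602579 in overexpression cortex. As a guide to precision, library values could be recovered for 2164 genes with means from 500 to 1000, and the 95% interval of their fold change reached a median of 1.14-fold to either side. Lrrtm4 falls in the range of means from 100 to 500, where that median was 1.22-fold over 4745 genes. In the upper range only 189 overexpression means came from a search of library values up to 2-fold from the mean. The others came from a search within 1.2-fold, which limits how wide their intervals can be. All 9 differences were within 1.14-fold. These intervals are unadjusted and are not a limit of detection, since larger differences in other genes did not pass an adjusted p under 0.05 either. The 7 genes with means above 1000 had no such interval.

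**Figure D1:**
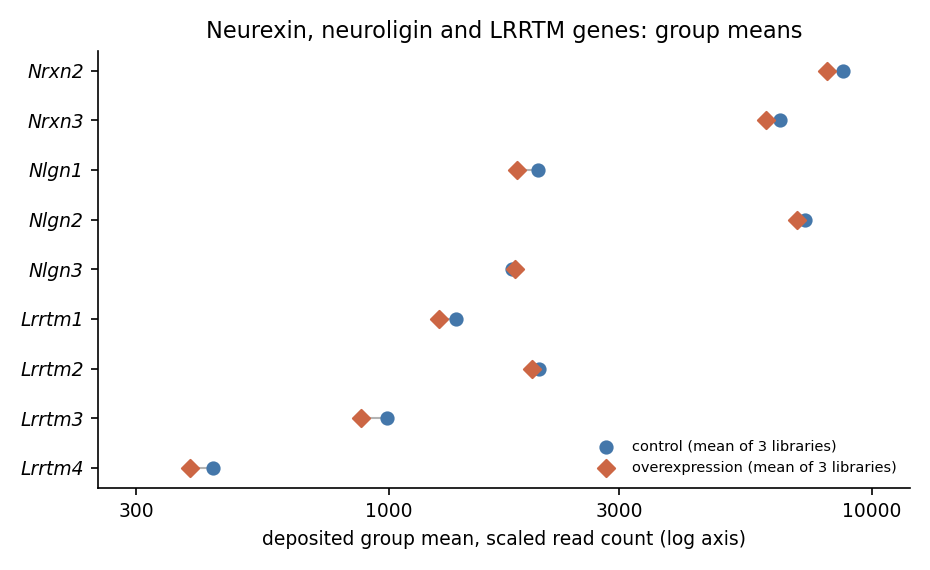
Deposited group means of the 9 genes as scaled read counts on a log axis, control as circles and overexpression as diamonds, each the mean of 3 libraries with no SD. The diamond lies left of the circle for every gene but Nlgn3, and each pair is close.

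The neurexins are the presynaptic partners, and Nrxn2 had the highest mean read count of the 9 genes. It (ENSMUSG00000033768, chromosome 19) had a mean of 8712 in control and 8102 in overexpression cortex. The log2 fold change was -0.10, and the authors' deposited table gave p = 0.33 (adjusted p = 1). Nrxn3 (ENSMUSG00000066392, chromosome 12) had means of 6458 and 6048, or -0.095 on the log2 scale, and the authors' deposited table gave p = 0.402 (adjusted p = 1). Control means were thus 1.08-fold and 1.07-fold the overexpression means, a similar difference in both genes. Each neurexin gene makes long α and short β forms and many splice variants, and a value per gene sums over all of them.

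The neuroligins, postsynaptic receptors for neurexins, differed more from each other. Nlgn1 (ENSMUSG00000063887, chromosome 3), the neuroligin of glutamatergic synapses, had a mean of 2038 in control and 1842 in overexpression cortex. Its log2 fold change was -0.15, the lowest of the 3, and the authors' deposited table gave p = 0.215 (adjusted p = 1). Nlgn2 (ENSMUSG00000051790, chromosome 11), the neuroligin of inhibitory synapses, had means of 7270.3 and 7022, or -0.05 on the log2 scale, with p = 0.655 in the authors' deposited table. Nlgn3 (ENSMUSG00000031302, chromosome X) had means of 1803 and 1824, or 0.017 on the log2 scale, with p = 0.88 in the authors' deposited table. The order Nlgn1 below Nlgn2 below Nlgn3 in fold change is a description, since differences between these genes were not tested.

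LRRTM genes were all lower in overexpression cortex. Lrrtm1 (ENSMUSG00000060780, chromosome 6) had a mean of 1378 in control and 1269.7 in overexpression cortex, and Lrrtm2 (ENSMUSG00000071862) had means of 2047 and 1983. Their log2 fold changes were -0.12 and -0.046, with p = 0.333 and p = 0.73 in the authors' deposited table. Lrrtm3 (ENSMUSG00000042846, chromosome 10) had means of 992 and 876, and Lrrtm4 (ENSMUSG00000052581, chromosome 6) had means of 433 and 387. Their log2 fold changes were -0.18 and -0.16, with p = 0.169 and p = 0.252 in the authors' deposited table. Together with Nlgn1 these were the 3 of 9 genes lower by 1.1-fold or more, where 8.51% of the 11645 genes were. Lrrtm3 lay below their central 90%, which ran from -0.17 to 0.17, and the other 8 genes lay inside it.

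**Figure D2:**
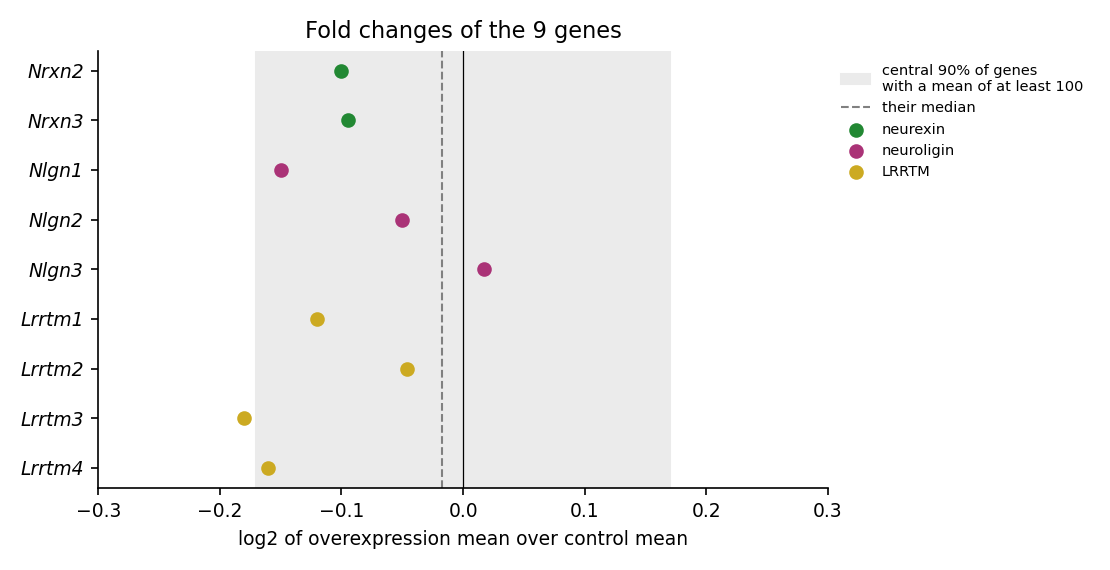
Log2 ratio of overexpression to control group mean for each of the 9 genes, coloured by family, with the central 90% of the 11645 genes with a mean of at least 100 in grey and their median as a dashed line. Only Lrrtm3, at -0.18, lies outside the grey band, whose lower edge is -0.17.

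For Lrrtm3 and Lrrtm4, whose means were under 1000 in both groups, the values of single libraries could be recovered. A group mean is a sum of whole reads divided by the scaling factor of each library, and its printed digits allow few combinations of reads. Within each group, library A had the largest scaling factor and library C the smallest, and none could be tied to a replicate number. Lrrtm4 was at 465, 421 and 414 in control libraries and at 406, 365 and 390.1 in overexpression libraries, from 375 to 498 reads each. The 3 control libraries were all above the 3 overexpression libraries. The means were 433 ± 27.9 (SD, n = 3) in control and 387 ± 20.5 (SD, n = 3) in overexpression cortex.

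Lrrtm3 was at 1049.7, 952 and 974 in control libraries and at 948, 828 and 852 in overexpression libraries. These groups did not overlap either, although control B and overexpression A were close. The means were 992 ± 51.5 (SD, n = 3) in control and 876 ± 63.3 (SD, n = 3) in overexpression cortex. For the overexpression mean of Lrrtm3, 3 combinations fitted the digits within 2-fold of the mean, and the values above are the only one within 1.2-fold. The other combinations, 594, 1299 and 735 or 1196, 819.7 and 612, would make the groups overlap, with an exact permutation p of 0.7 or 0.6.

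A two-sided exact permutation test gave p = 0.1 for Lrrtm3 and p = 0.1 for Lrrtm4, the smallest p that 3 against 3 libraries allow. Of the 6909 recovered genes whose mean reached 100, 2.82% had all overexpression libraries below all control libraries. The limma fit on log2(value + 1) over all 12353 recovered genes gave Lrrtm3 a log2 fold change of -0.18 (95% interval -0.35 to -0.011), with an unadjusted p of 0.0384 and an adjusted p of 1. For Lrrtm4 limma gave -0.16 (95% interval -0.37 to 0.049), with an unadjusted p of 0.121 and an adjusted p of 1. By limma 0 genes passed at an adjusted p under 0.05, which is 0% of those tested, and 253 had an unadjusted p under 0.05, which is 2.05%. That share is also below the 0.05 that a calibrated test gives where no gene differs. With 1 library left out, the limma log2 fold change stayed between -0.24 and -0.14 for Lrrtm3 and between -0.20 and -0.11 for Lrrtm4. The limma interval, p and leave-one-out range of Lrrtm3 all rest on the overexpression combination within 1.2-fold, whose SD was 63.3. The other combinations had SDs of 373 and 296, and limma was not run with them. Of overexpression means from 500 to 1000 with exactly 1 combination within 2-fold, 76.2% had all 3 libraries within 1.2-fold.

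**Figure D3:**
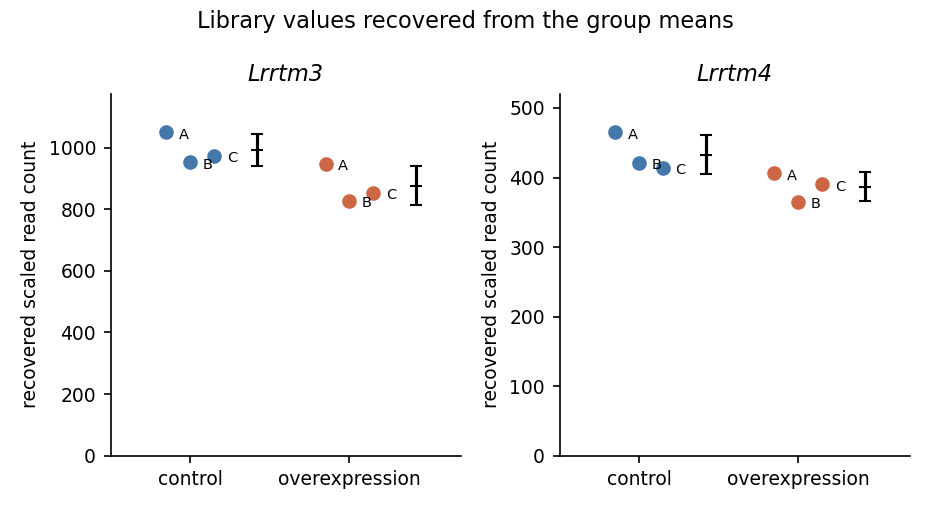
Recovered scaled read counts of Lrrtm3 and Lrrtm4 in libraries A, B and C of each group, with the mean and SD of 3 libraries as a bar at the right. Lrrtm4 has every control library above every overexpression library. Lrrtm3 has the same only with the combination of reads within 1.2-fold of the overexpression mean, which is plotted, and not with the other 2 that fitted.

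With these values library A was the highest of its group in both genes, and with 1 of the other combinations it was the lowest for Lrrtm3 in overexpression cortex. Drd1 and Drd2, markers of the neighbouring striatum, were lowest in library A of each group and highest in library C. Drd2, a dopamine receptor gene of striatal neurons, was at 51.9, 88.6 and 124 in control A, B and C and at 86.4, 98.8 and 154 in overexpression A, B and C. Drd1, another such gene, was at 219, 292 and 353 in control and at 287, 296 and 393 in overexpression libraries. Over the 4 striatal markers the summed mean was 1773 in control and 2251 in overexpression cortex, and 0 of the 4 were lower. Kl and Folr1, markers of the choroid plexus, had the same order of libraries as Lrrtm4 in each group. Kl was at 88.6, 73.4 and 28.7 in control A, B and C and at 95.3, 10.4 and 68.3 in overexpression libraries. Folr1 was at 8.15, 5.4 and 2.21 and at 4.89, 1.88 and 3.1. Ttr, another such marker, was recovered only in overexpression libraries and had another order, 97.8, 170.3 and 97.3. The part of dissection in the Lrrtm3 and Lrrtm4 values was not tested.

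Levels of different genes can be compared only per length, and here the length was the union of annotated exons in GENCODE M21. Nlgn2 was the highest of the 9 genes on this scale, at 1257 per kilobase in control and 1214 in overexpression cortex. It made up 78.4% of the summed neuroligin level in control and 78.4% in overexpression cortex. Nlgn3 made up 12.1% and 12.7%, and Nlgn1 made up 9.47% and 8.87%. Among the neurexins, Nrxn2 was at 631 and Nrxn3 at 512 per kilobase in control cortex. Lrrtm1 was the highest LRRTM at 454 per kilobase in control cortex, followed by Lrrtm2 at 339.9, Lrrtm3 at 233 and Lrrtm4 at 70.5. The order within each family was the same in overexpression cortex, with Lrrtm1 at 419, Lrrtm2 at 329, Lrrtm3 at 206 and Lrrtm4 at 63. With the longest principal transcript as the length, Nrxn2 rather than Nlgn2 had the highest control level, at 1307 against 1306 per kilobase. The order within each family did not change, and the control level of Lrrtm4 was 143. These ranks have no error, since each rests on 1 mean per group.

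**Figure D4:**
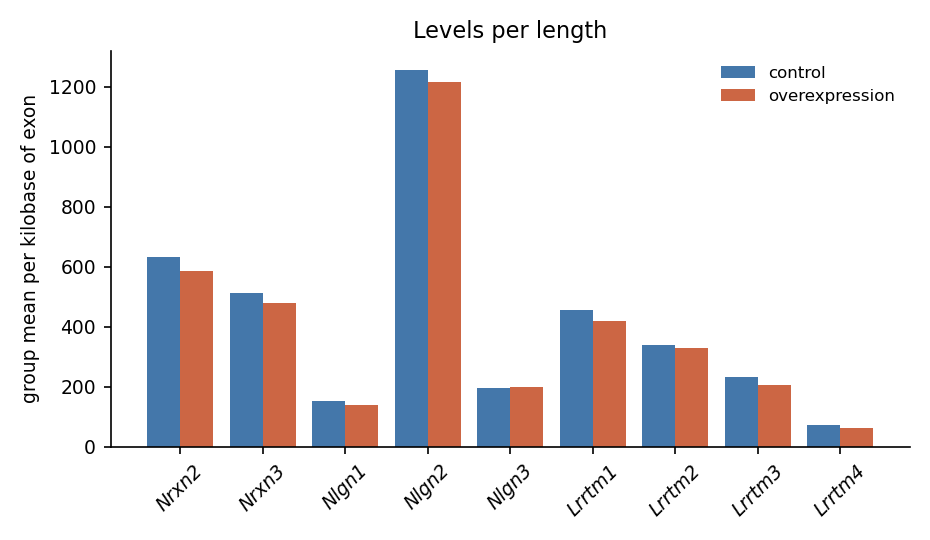
Group means per kilobase of annotated exon for the 9 genes, control and overexpression side by side, with no error bars because only group means were deposited. Nlgn2 stands highest, at 1257 and 1214, and Lrrtm4 lowest, at 70.5 and 63.

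Several LRRTM genes lie inside genes of α-catenins, the proteins that link β-catenin to actin. In GENCODE M21 (GRCm38), Lrrtm1 lies at chr6:77242689-77257791 within Ctnna2, and Lrrtm3 at chr10:63928472-64090277 within Ctnna3, each on the opposite strand. Lrrtm2 lies within Ctnna1, also on the opposite strand. The exons of Lrrtm1 and Lrrtm3 shared 0 bases with those of their hosts, and those of Lrrtm2 shared 95 bases, 1.58% of its exon length. Ctnna1 had a mean of 1088 in control and 1092 in overexpression cortex, and Ctnna2 had means of 3513 and 3416. Ctnna3 was at 17.1 ± 3.17 (SD, n = 3) in control and 19.8 ± 5.02 (SD, n = 3) in overexpression libraries. The host genes thus differed by log2 fold changes of 0.0049, -0.04 and 0.21, with p = 0.983, 0.717 and 0.628 in the authors' deposited table, so none of the 3 passed. The recovered libraries of Ctnna3 overlapped between groups.

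Other annotated genes share exons with members. Reads from bases shared on the same strand cannot be told apart, nor can those on opposite strands without a stated strand setting. Nlgn3 shares the most, 41.2% of its exon length with Gm21986 on the same strand, which had means of 10.1 and 15.6. Lrrtm4 shares 25.1% with the antisense gene Gm4409, at 0.368 in control and listed at 0 in overexpression cortex. The antisense gene A830092H15Rik shares 9.16% of the Nlgn1 exon length and had means of 14.5 and 9.29. Reads that a counter discards as shared would lower the values of Nlgn3 and Lrrtm4, and the counter is not given in the sources used here.

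Because β-catenin acts with TCF/LEF factors, the bases before each annotated start were searched for their core, the letters CTTTG followed by a pair of bases that are each A or T, on both strands. RefSeq windows (GRCm38.p6) were given for 6 of the 9 genes, 10 windows in all, and the 250 bases before each start were read. A match was found in 2 of the 10 windows, where 14.8% of all 32851 windows held one. The last 120 bases of both matching windows are shown first, with the match in capitals, followed by those of Lrrtm3 and Lrrtm4, the genes with library values, which held none. All are 5′ to 3′ on the gene's strand.
Nlgn1 (chr3:26153987-26154106, minus strand): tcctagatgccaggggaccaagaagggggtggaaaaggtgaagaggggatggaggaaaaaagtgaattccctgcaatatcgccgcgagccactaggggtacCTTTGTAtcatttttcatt
Nrxn3 (chr12:88794384-88794503, plus strand): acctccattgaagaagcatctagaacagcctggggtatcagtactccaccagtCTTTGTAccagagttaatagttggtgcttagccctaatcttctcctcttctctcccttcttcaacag
Lrrtm3 (chr10:64090256-64090375, minus strand): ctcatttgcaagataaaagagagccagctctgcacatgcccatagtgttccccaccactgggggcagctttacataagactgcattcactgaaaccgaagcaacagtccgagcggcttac
Lrrtm4 (chr6:80018757-80018876, plus strand): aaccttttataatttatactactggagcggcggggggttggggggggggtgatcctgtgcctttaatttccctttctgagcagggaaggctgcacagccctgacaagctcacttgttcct
The match begins 19 bases before the start in Nlgn1 and 67 bases before it in Nrxn3. Both stretches with a match lie inside the gene, in introns of longer transcripts, and overlap 0 annotated exon bases. Whether transcription begins at these annotated starts was not tested, so neither stretch is shown to be a promoter. The Lrrtm3 stretch overlaps 22 annotated exon bases, and the Lrrtm4 stretch overlaps 0. A match is a description of letters and not a binding site.

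Partner genes of the 9 were grouped into 5 lists by role, 79 genes in all. In the p-values the authors deposited, 0 of 79 had an adjusted p under 0.05, beside 0% of all tested genes. An unadjusted p under 0.05 was deposited for 1 of the 79, beside 0.534% of all tested genes. Of the 79 genes, 63 were lower and 16 higher in overexpression cortex, with a median log2 fold change of -0.081. Over the 11645 tested genes with a mean of at least 100, 57.8% were lower and the median was -0.017. The counts and medians of the 5 lists below stand beside those values. Of the 29 recovered partner genes limma passed 0 at an adjusted p under 0.05, beside 0% of all recovered genes, and 1 had an unadjusted p under 0.05, beside 2.05%.

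Secreted ligands that bind neurexins, the cerebellins and neurexophilins, were counted together with the C1q-like proteins. Of 11 genes 6 were lower and 5 higher, with a median of -0.011 that turned to 0.02 when the groups were scaled to equal sums. Nxph4, a neurexophilin gene, was the gene with the small p, 0.00413 (adjusted p = 1) in the authors' deposited table. Nxph4 is named for that p, so its library values, from the same reads, are no separate evidence. The share of all genes whose overexpression libraries all lay higher is not given here. Nxph4 was at 63.1, 69.1 and 78.3 in control libraries and at 101, 124 and 98.3 in overexpression libraries, so the groups did not overlap. Its limma log2 fold change was 0.61 (95% interval 0.23 to 0.99), with an adjusted p of 1 and an exact permutation p of 0.1. Cbln1, a cerebellin gene, had the lowest log2 fold change among ligands with a mean of at least 100, -0.35. Its libraries overlapped, at 179, 195 and 273 in control and 203, 129.9 and 176 in overexpression cortex. The most abundant ligands differed little: Nxph1 had means of 727 and 685, Nxph3 of 718 and 686, and Cbln2 of 586 and 589. C1ql1, at 192 and 200.3, had the highest ratio among ligands with a mean of at least 100.

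Of 17 surface regulators, which include the MDGA proteins that cover neuroligins and the latrophilins, 13 were lower and 4 higher, with a median of -0.066. Scaled to equal sums, 11 were lower and the median was -0.034. Clstn1, a calsyntenin gene, had means of 31776 and 28951, Clstn3 of 9583 and 8988, and the latrophilin gene Adgrl1 of 12721 and 12609. Among those with a mean of at least 100, Mdga1 had the lowest ratio, with means of 1146 and 978 and a log2 fold change of -0.23 (p = 0.416 in the authors' deposited table). Adgrl2 had the highest ratio among them, with means of 2773 and 3085 and a log2 fold change of 0.15 (p = 0.304 in the authors' deposited table).

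Intracellular scaffolds that bind the tails of neurexins or neuroligins had 13 lower and 2 higher of 15 genes, with a median of -0.081. Scaled to equal sums, 11 were lower and the median was -0.049. Dlg4, which encodes PSD-95, a scaffold of glutamatergic synapses, had means of 20998 and 20667. Dlg2 had means of 8998 and 7985 and the lowest ratio, -0.17, and Lin7b had means of 755 and 791 and the highest, 0.067. Among the 3 KHDRBS genes, RNA-binding proteins of which some control neurexin splicing, Khdrbs3 had means of 2748 and 2653, Khdrbs1 of 1882 and 1899, and Khdrbs2 of 114 and 100.5. Splicing itself could not be read from a value per gene.

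The last list held other synapse organisers, which do not work through neurexins or only in part. Of 33 genes 29 were lower and 4 higher, with a median of -0.11 that became -0.073 with equal sums. Ptprs and Ptprd, receptor phosphatases of the presynaptic side, had means of 11106 and 11529, and of 9321 and 9104. Cadm3, a SynCAM gene, had means of 10978 and 10428. Among those with a mean of at least 100, Ntng2, a netrin-G gene, had the highest log2 fold change, 0.067. Igsf9b, an adhesion gene of inhibitory synapses, had the lowest, -0.37, with p = 0.436 in the authors' deposited table. The control libraries of Igsf9b were far apart, at 337, 461 and 228. The median of the 9 neurexin, neuroligin and LRRTM genes was thus close to that of the other organisers, and no difference between them was tested.

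**Figure D5:**
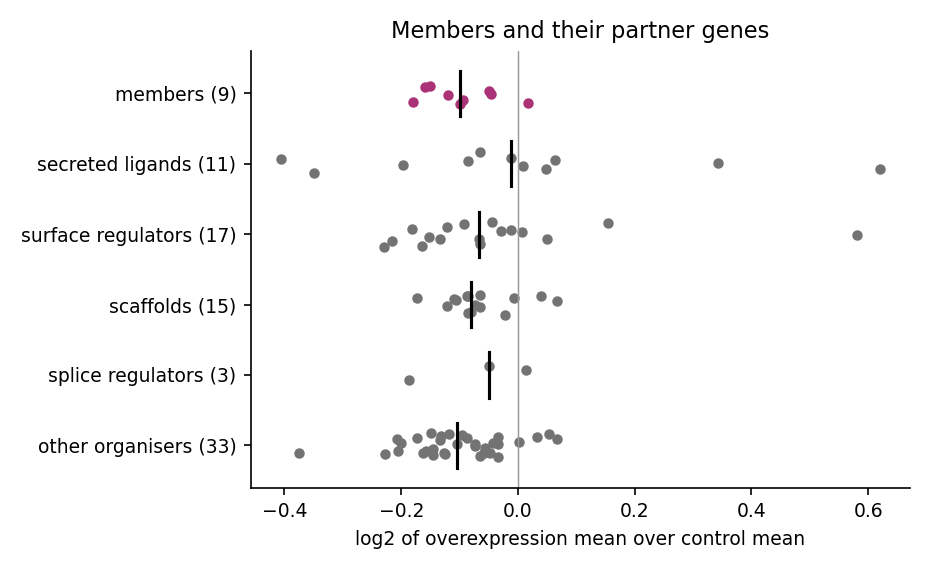
Log2 ratio of overexpression to control group mean for the 9 genes and the 5 partner lists, 1 point per gene, with the list's median as a black line and the number of genes in brackets. Medians run from -0.11 in other organisers to -0.011 in secreted ligands.

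Markers of several cell types had lower group means in overexpression cortex and those of others had higher ones, and none of these sums was tested. Of 6 excitatory neuron markers, Neurod6 carries the Nex-Cre allele at its locus in overexpression mice only, and had means of 1942 and 1199. The authors' deposited table gave Neurod6 p = 5.04e-05 (adjusted p = 0.76). The summed mean of the other 5 was 107829.8 in control and 102280.5 in overexpression cortex, with all 5 lower. That of 3 GABAergic markers was 9274 and 8555, with all 3 lower. Both of the 2 oligodendrocyte precursor markers were lower, at a sum of 2328 and 2155, and 2 of 3 astrocyte markers were, at 15096 and 14649. The summed mean of 3 oligodendrocyte markers was 101924 in control and 109632 in overexpression cortex, with 0 of the 3 lower. Sums of 3 microglial markers were 3645 and 3797, with 0 of the 3 lower. Those of 3 endothelial markers were 2361 and 2445, with 1 of the 3 lower, Pecam1 at 548 and 504. In whole tissue, fewer cells of a type and less RNA per cell cannot be told apart. The 3 choroid plexus markers were at a sum of 358 and 183, with all 3 lower. Most of that difference was in Ttr, at 289.5 and 122 (p = 0.449 in the authors' deposited table). Kl was at 63.6 and 58, and Folr1 at 5.25 and 3.29. None of the markers of any type was at 0. The part of these shifts in the values of the 9 genes was not tested. Ctnnb1 had means of 7574 and 6391, a log2 fold change of -0.25 and thus lower in overexpression cortex. The authors' deposited table gave p = 0.0304 for Ctnnb1, which did not pass at an adjusted p under 0.05. A value per gene for Ctnnb1 includes exons outside the removed one and does not check the genotype.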

How the data were processed

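Per the submitters' processing notes, Bowtie2 2.0.6 and TopHat2 2.0.9 were used. For the build, annotation, counter, strand setting and test, nothing was given in the sources used here. Total RNA had been extracted with Trizol and libraries made with a TruSeq RNA kit, per the labels' protocols. The authors deposited 1 signal value per gene and group, read from the values as a mean of scaled read counts, with p-values, raw and adjusted, for each gene. Symbols were matched for 46488 of 47069 Ensembl IDs.

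Log2 fold changes were computed from the group means, and calls used the deposited adjusted p under 0.05. For each mean up to 1000, whole reads of 3 libraries were sought that give its 10 printed digits. All combinations were searched up to a mean of 100, and above it those within 2-fold of the mean, or within 1.2-fold where more than 1 fitted. The 1.2-fold limit loses some variable genes and bounds the spread of those it finds. By these searches exactly 1 combination was found for 99.7% of control and 98.5% of overexpression means up to 1000. Of the 7013 such overexpression means above 100, 4786 had 1 combination within 2-fold. The others had more than 1 there and 1 within 1.2-fold. Both groups had 1 combination by these searches for 72.3% of genes whose mean over the groups reached 10. Scaling factors of control libraries A to C were 0.982, 0.926 and 0.907, and those of overexpression libraries A to C were 1.23, 1.06 and 0.966. limma 3.58.1 in R 4.3.3, with a mean-variance trend, was fitted to log2(value + 1), and p-values were adjusted by the Benjamini-Hochberg method. The recovery and the fit were also run on simulated data, in which all genes shared 1 spread and the changes put in were 2-fold. Smaller changes and genes of uneven spread were not simulated, and the outcome is not given here.

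Members and lists were chosen with earlier results of these data known. Named partners were, per list, the 3 with the highest mean, any with an unadjusted p under 0.05, and the highest and lowest ratio among means of at least 100. A gene that this rule picks is not reported here. Lengths and overlaps came from GENCODE M21, whose build may differ from that of the authors.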

Additional observations from a re-analysis of the deposited data

How the results depend on the processing

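All 8 lower members stayed lower when groups were scaled to equal sums or to a median ratio of 0. Both scalings raise every ratio, so Nlgn3 could only stay higher. A pseudocount of 1 or 10 cannot change the sign of a ratio, so it does not check the directions. Equal sums added 0.032 to each log2 fold change, which left Nlgn2 at -0.018, Lrrtm2 at -0.014 and Nrxn3 at -0.063 and put Nlgn3 at 0.049. The median of the KHDRBS genes became -0.019, against -0.05. Under these settings the median of the 9 genes ran from -0.10 to -0.073, and a mean over them also lay in that range. Adjustment over genes with a mean of at least 10 or 100 called 0 members. No other outcome was possible, since an adjusted p is never below the raw p. The lowest raw p of a member in the authors' deposited table was 0.169. With limma, 0 genes were called under each of 13 alternatives, with 6 leave-one-out fits among them. Without 1 library, 163 (without control A) to 481 (without control C) genes had an unadjusted limma p under 0.05, against 253 with all libraries. Leaving out genes found by the 1.2-fold search and centring libraries on their medians were added after seeing the data, as were the principal transcript length and the other read combinations of Lrrtm3. With the principal transcript, Nrxn2 made up 61.6% of the neurexin level in control cortex, against 55.2% with the union of exons. No paired analysis was possible because the deposited columns are group means and recovered libraries carry no replicate numbers. Means above 1000, those of 7 of the 9 genes, gave no library values.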
